A study of Saccharomyces cerevisiae with 25 samples.

Results

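PHO8, PHM8, SDT1, PHO13 and GDE1 of budding yeast encode intracellular enzymes that split phosphate esters. These genes were chosen by name, for what their products do, and all 5 of 5 were found among the 6650 named genes of the deposited table. They and the gene lists used below were chosen with earlier results of these data known. Their counts beside all genes are therefore descriptions. RNA was sequenced from BY4741, a haploid laboratory strain of mating type a that is labelled wild type; the strain lacks the marker genes HIS3, LEU2, MET17 and URA3, here in every sample. Cells kept overnight in medium rich in phosphate gave 1 library at 0 min, and cells washed and moved to medium without phosphate gave 24 libraries, 1 every 15 min from 15 to 360 min. All libraries come from 1 course of 1 strain, and no label names separate cultures. The 24 later libraries were grouped by 4 into 6 consecutive windows, the first covering 15 to 60 min (called early) and the last 315 to 360 min (called late). The neighbouring times of a window stand in for replicates, so p-values measure the spread between serial samples, which may be technical and includes true change within a window.

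Yeast answers a lack of inorganic phosphate through the PHO pathway. When phosphate is plentiful, the cyclin and kinase pair Pho80 and Pho85 keeps the transcription factor Pho4 out of the nucleus, and when it is scarce the inhibitor Pho81 blocks the kinase and Pho4 activates its targets, the PHO regulon. The best known targets bring phosphate in from outside, as secreted acid phosphatases and membrane transporters, while the enzymes described here take it from esters already inside the cell. PHO8 encodes the vacuolar alkaline phosphatase, PHM8 a phosphatase of nucleoside monophosphates and lysophosphatidic acid, SDT1 a pyrimidine nucleotidase and PHO13 a phosphatase of small metabolites first assayed on p-nitrophenyl phosphate. GDE1 encodes a glycerophosphocholine phosphodiesterase, which yields choline and glycerol phosphate, so it frees a phosphate ester and not phosphate itself. PHM8 and SDT1 are paralogs of the haloacid dehalogenase (HAD) family.

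All 5 genes have 1 coding exon, and none overlaps another annotated gene in RefSeq's annotation of build R64, the build that the submitters' processing notes name. PHO8 (YDR481C) lies at chrIV:1418550-1420250 on the minus strand, PHM8 (YER037W) at chrV:225889-226854 on the plus strand and SDT1 (YGL224C) at chrVII:78015-78857 on the minus strand. PHO13 (YDL236W) lies at chrIV:32296-33234 on the plus strand and GDE1 (YPL110C) at chrXVI:341068-344739 on the minus strand. The nearest convergent gene is KRE29, whose coding sequence ends 3 bases from that of PHM8. It was listed in 6 of the 25 libraries.

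Pho4 binds the hexamer CACGTG and, more weakly, CACGTT, and the stress factors Msn2 and Msn4 bind AGGGG. These letters were searched on both strands in the 600 bases before each start codon. The matches to the hexamers, with up to 12 bases on either side, are printed on the strand of the gene, with the matched letters in capitals, because they show how the 5 genes differ in this respect. AACGTG is CACGTT read on the other strand.
PHO8, first base 534 before the start codon, chrIV:1420767-1420796, minus strand: tctacgtcgggcCACGTGcagcgatcactt
PHO8, first base 380 before the start codon, chrIV:1420613-1420642, minus strand: ctcatatggagaAACGTGagattgaagtac
GDE1, first base 485 before the start codon, chrXVI:345207-345236, minus strand: aattgcgacttcCACGTGttcgcaggtgga
GDE1, first base 258 before the start codon, chrXVI:344980-345009, minus strand: aattatttttagAACGTGcacattatatta
PHM8, first base 275 before the start codon, chrV:225602-225631, plus strand: aaagggggcagcAACGTGcttcacatacaa
SDT1, first base 519 before the start codon, chrVII:79359-79388, minus strand: aaccaatgatacCACGTTgcaaatttatca
PHO13, first base 221 before the start codon, chrIV:32063-32092, plus strand: actattctccagCACGTTttcagtatttac

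CACGTG was therefore found before PHO8 and GDE1, 2 of the 5 genes, against 16 of the 19 other PHO regulon genes and 7.23% of 5999 protein-coding genes with an upstream region of the same length. CACGTT was found once before each of the 5 genes, against 10 of the 19 other PHO regulon genes and 18.8% of all genes. Both PHO8 hexamers lie within the coding sequence of its upstream neighbour CWC21, and that of SDT1 within the coding sequence of COG1. AGGGG, in either direction, was found 3 times before PHM8, as in 2.43% of all genes (3 or more matches), and once before PHO8. It was not found before SDT1, PHO13 or GDE1, and 39.7% of all genes had at least 1 match. The 3 PHM8 matches are printed below to show their spacing; the last lies 5 bases before the hexamer above.
PHM8, first base 442 before the start codon, chrV:225435-225463, plus strand: ccatcggtctccCCCCTcacctttctttt
PHM8, first base 357 before the start codon, chrV:225520-225548, plus strand: caaaggtgatatAGGGGgtttttcttttt
PHM8, first base 285 before the start codon, chrV:225592-225620, plus strand: gttgagaaaaaaAGGGGgcagcaacgtgc

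PHM8 and SDT1 could share reads if their coding sequences were near-identical, so the longest run of bases common to both was found. It is 14 bases long and is in capitals in the lines that follow.
PHM8, coding bases 382 to 395, chrV:226260-226293, plus strand: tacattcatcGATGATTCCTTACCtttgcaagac
SDT1, coding bases 388 to 401, chrVII:78447-78480, minus strand: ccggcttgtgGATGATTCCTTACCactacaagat
Of the 25-base windows of the 5 coding sequences, 0 of 1677 for PHO8, 0 of 942 for PHM8, 0 of 819 for SDT1, 0 of 915 for PHO13 and 0 of 3648 for GDE1 occur anywhere else in the genome. Reads of 25 bases or more that match exactly could therefore be placed on each of the 5 genes without ambiguity.

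Values are log2 RPM, reads scaled to a sum of 1000000 per library. Such a value is a share of the library, so more transcript of one gene and less of all others cannot be told apart, nor can fewer cells with a transcript and less of it per cell. Depth, recovered from the spacing of low values, ran from 209394 reads at 120 min to 1737019 at 75 min, and the 5 genes had 25 to 1274 recovered reads in each library. HIS3, LEU2, MET17 and URA3 were listed in 0 of 25 libraries, while STE2, the alpha-factor receptor of mating type a, was listed in 25 at 8.69 to 9.22 log2 RPM. Of the genes of the other mating type, STE3 was listed in 24 at 4.24 to 6.01 and MF(ALPHA)1 in 6 at 2.81 to 4.55. Cytosolic ribosomal protein genes held 27.7% to 28.7% of each library at 15 to 60 min and 3.90% to 6.15% at 315 to 360 min, and the median of all 4535 tested genes moved by 0.33 log2 units between these windows. The libraries at 150, 210 and 225 min deviated together: on the second principal component of the 16 libraries from 135 min on (17.5% of the variance) they had loadings of 0.38, 0.52 and 0.53, while the other 13 lay between -0.32 and 0.12.

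PHO8 began as the least abundant of the 5 in these units. Its level was 5.34 log2 RPM in high phosphate, then 5.65, 6.55, 6.80 and 6.77 at 15, 30, 45 and 60 min. It was 6.58, 6.55, 6.78 and 6.96 from 75 to 120 min and 7.37, 7.26, 7.88 and 7.77 from 135 to 180 min. In the next window the 4 values spread widely, at 7.90, 7.27, 7.49 and 8.32, with the lower ones at 210 and 225 min. They were 7.85, 7.97, 8.25 and 8.21 from 255 to 300 min and 7.97, 8.04, 8.10 and 7.89 from 315 to 360 min. PHO8 thus had an early move within 45 min of the transfer, little further movement until 105 min and a second climb afterwards, and every late sample lay above every early one.

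PHM8 showed the widest range. Its level was 5.96 log2 RPM in high phosphate, 6.10, 6.46, 6.71 and 7.10 from 15 to 60 min and 6.78, 7.22, 7.55 and 9.24 from 75 to 120 min. It was 8.93, 9.11, 9.59 and 9.43 from 135 to 180 min and 9.45, 9.67, 9.56 and 9.65 from 195 to 240 min. The step of 1.70 log2 units from 105 to 120 min was the largest between neighbouring no-phosphate samples for any of the 5 genes. It ended in the shallowest library, where PHM8 had 127 recovered reads, and the 135 min library, with 274 reads, stood at nearly the same height. Later values stayed between 9.57 (300 min) and 9.98 (330 min), so the early and late groups did not overlap.

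SDT1, the paralog, followed a similar course to a lower ceiling. Its level was 5.83 log2 RPM in high phosphate, 6.42, 6.66, 6.85 and 6.95 from 15 to 60 min, and 6.75, 6.93, 7.28 and 8.14 from 75 to 120 min. It was 7.98, 8.52, 8.51 and 8.50 from 135 to 180 min and 8.40, 8.85, 8.94 and 8.50 from 195 to 240 min. Its highest values fell at 210 and 225 min, the times at which PHO8 was low. From 255 to 360 min the 8 values lay between 8.31 and 8.54, above all early ones.

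GDE1, the phosphodiesterase, had a course close to that of SDT1. Its level was 5.68 log2 RPM at 0 min, 6.04, 6.46, 6.25 and 6.20 from 15 to 60 min and 6.41, 7.09, 7.05 and 7.58 from 75 to 120 min. It was 8.07, 8.51, 8.30 and 8.28 from 135 to 180 min and 8.34, 8.58, 8.49 and 8.36 from 195 to 240 min. From 255 to 300 min it held 8.36, 8.19, 8.44 and 8.44, and from 315 to 360 min 8.46, 7.96, 8.40 and 7.96. All samples from 90 min on were above the highest of the first 4.

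PHO13 was the exception. Its level was 7.07 log2 RPM in high phosphate and 6.93, 7.13, 6.73 and 7.03 from 15 to 60 min, so these samples lay on both sides of the starting value. It was 6.94, 7.10, 7.08 and 6.90 from 75 to 120 min and 7.53, 6.78, 7.92 and 7.81 from 135 to 180 min. From 195 to 240 min it was 7.62, 7.29, 7.17 and 7.90, with its lower values at 150, 210 and 225 min, as for PHO8. It was 7.78, 7.64, 7.71 and 8.07 from 255 to 300 min and 7.72, 7.69, 7.82 and 7.74 from 315 to 360 min, where the samples were close together and above all early ones.

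**Figure D1:**
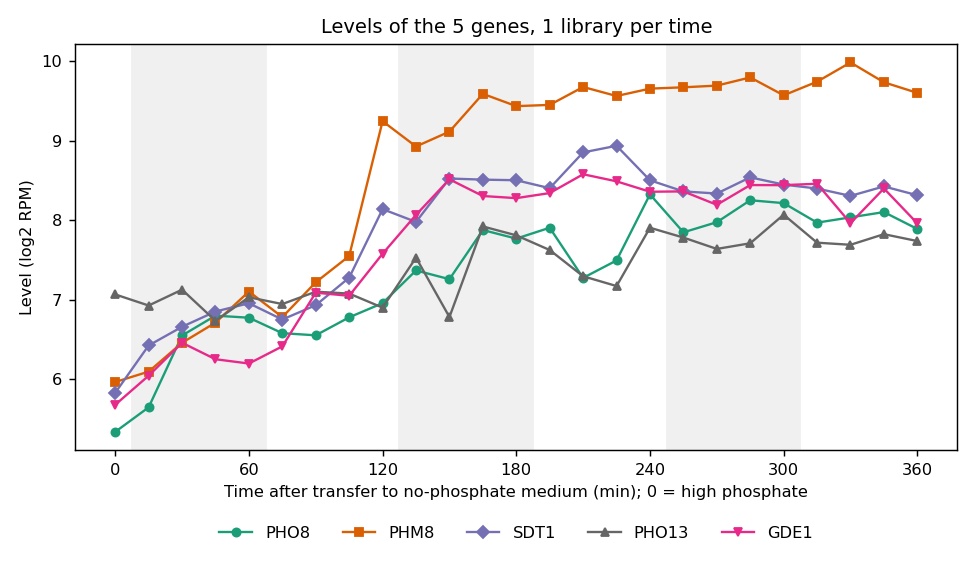
Level (log2 RPM, y axis) of PHO8, PHM8, SDT1, PHO13 and GDE1 against time after transfer (min, x axis); each point is 1 library, 0 min is high phosphate, and alternate windows are shaded. PHM8 climbs from 5.96 to values between 9.57 and 9.98 after 240 min, whereas PHO13 stays between 6.73 and 7.13 up to 120 min.

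Compared per length, the order of the genes changed over the course. In high phosphate the level per kilobase of coding sequence was highest for PHO13 at 143 RPM per kb, followed by SDT1 at 67.4, PHM8 at 64.6, PHO8 at 23.8 and GDE1 at 13.9. This is 1 library, and the neighbours SDT1 and PHM8, with 81 and 89 recovered reads, cannot be ordered at that depth. At 315 to 360 min PHM8 led with 905 ± 103 RPM per kb, then came SDT1 with 390 ± 16.2, PHO13 with 228 ± 9.26, PHO8 with 151 ± 9.47 and GDE1 with 80.8 ± 15.1 (SD, n = 4). Each neighbouring pair in the late order was further apart than the sum of the 2 SDs. The scale assumes reads spread evenly over the coding sequence, and the counting method is not given in the sources used here.

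Window means were first compared with the value in high phosphate, to ask which of these genes responded to the transfer. A gene counted as higher when the window mean lay at least 1 log2 unit above the 0 min value and all samples lay on that side; with 1 baseline library, shared by all 6 windows, no test was possible. At 15 to 60 min 1 of the 5 genes counted, PHO8, at 1.10 ± 0.54 log2 units above high phosphate (SD, n = 4), against 2.45% of all genes compared. The others stood at 0.89 ± 0.23 (SDT1), 0.63 ± 0.42 (PHM8), 0.56 ± 0.17 (GDE1) and -0.11 ± 0.17 (PHO13). PHO8, SDT1, PHM8 and GDE1 were above the 0 min value in each of the 4 libraries.

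At 75 to 120 min PHO8, PHM8, SDT1 and GDE1 counted, 4 of 5 against 3.72% of all genes, and the same 4 counted in every later window. With the 15 min library as the baseline 2 of 5 counted at 75 to 120 min, PHO8 and PHM8, against 1.59% of all genes compared. SDT1 stood at 0.85 and GDE1 at 0.99 on that baseline. With the 0 min baseline the background was 14.4% at 135 to 180 min, 18.6% at 195 to 240 min, 19.0% at 255 to 300 min and 21.8% at 315 to 360 min. In the last window the mean stood 3.80 ± 0.16 log2 units above high phosphate for PHM8, or 13.9-fold, and 2.66 ± 0.09 for PHO8, or 6.33-fold. It was 2.53 ± 0.06 for SDT1 (5.78-fold) and 2.52 ± 0.27 for GDE1 (5.72-fold). PHO13 reached 0.68 ± 0.06, or 1.60-fold, and counted in no window.

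The share of that total already present at 15 to 60 min differed between the genes. It was 41.5% for PHO8, 35.3% for SDT1, 22.2% for GDE1 and 16.5% for PHM8, on the log2 scale. The order rests on the 1 baseline library. With the 15 min library in its place the shares were 45.1%, 20.5%, 11.99% and 18.0% for PHO8, SDT1, GDE1 and PHM8. That library was then left out of the early window, so the early samples changed along with the baseline. PHO8 had the highest share with both baselines, and the lowest was that of PHM8 with the first and of GDE1 with the second. The early samples of PHM8 ran from 0.13 to 1.14 log2 units above high phosphate.

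The second comparison left the high-phosphate library out and tested the late window (315 to 360 min) against the early one (15 to 60 min). All 5 genes rose, against 37.8% of the 4535 genes tested that rose (limma, Benjamini-Hochberg adjusted p under 0.05 over all of them). PHM8 went from 6.59 ± 0.42 to 9.76 ± 0.16 log2 RPM (SD, n = 4), which is 3.17 higher (SE 0.33, limma adjusted p = 6.46e-08), which ranked 22 from the top. GDE1 went from 6.24 ± 0.17 to 8.19 ± 0.27, a change of 1.96 (SE 0.17, limma adjusted p = 2.26e-11). SDT1 went from 6.72 ± 0.23 to 8.36 ± 0.06, a change of 1.64 (SE 0.19, limma adjusted p = 2.10e-08). PHO8 went from 6.44 ± 0.54 to 8.0 ± 0.09, a change of 1.56 (SE 0.21, limma adjusted p = 2.41e-07). In all 5 genes the 4 late samples lay above the 4 early ones, as in 38.1% of the genes tested.

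PHO13 had the smallest change, from 6.95 ± 0.17 to 7.74 ± 0.06 log2 RPM, or 0.79 (SE 0.18, limma adjusted p = 5.28e-04). This call depends on the scaling. With each library centred on its median gene the change of PHO13 was 0.43 (SE 0.19, adjusted p = 0.0692), and with libraries rescaled to the sum without ribosomal protein genes it was 0.39 (SE 0.18, adjusted p = 0.0837), so it no longer passed. On the centred scale PHM8 changed by 2.81, GDE1 by 1.60, SDT1 by 1.28 and PHO8 by 1.20, and all 4 still passed. A spline of time over the 24 no-phosphate libraries, tested by the limma F test, was called for all 5 genes, as for 58.8% of the genes tested, with PHO13 having the highest adjusted p at 6.09e-05.

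Steps between neighbouring windows located the change in the course. From 15 to 60 to 75 to 120 min GDE1 alone of the 5 passed, with 0.79 (SE 0.17, limma adjusted p = 0.0123), in a contrast in which 0.397% of the genes tested rose. That background is 18 genes (10 to 27 when each library was left out in turn), among which 8 belong to the 19 other PHO regulon genes: PHO5, PHO11 and PHO12 (secreted acid phosphatases), PHO84 and PHO89 (phosphate transporters), VTC1 (a polyphosphate polymerase subunit), HOR2 (glycerol phosphatase) and PHM6. PHO11 and PHO12 are near-identical copies, so their reads may not be told apart. The GDE1 call rests on single libraries. Without the 15 min library its change was 0.73 (adjusted p = 0.0739) and without the 120 min library 0.61 (adjusted p = 0.0662). The change of PHM8 was larger, at 1.11, but its SE was 0.33 and it did not pass (limma adjusted p = 0.212). Without the 75 min library PHM8 did pass, at 1.41 (adjusted p = 0.0236), and without the 120 min library its change was 0.59 (adjusted p = 0.211). For SDT1 the change was 0.55 (SE 0.19, adjusted p = 0.291), and 0.26 without the 120 min library. For PHO8 it was 0.27 (SE 0.21), and 0.0089 without the 15 min library. For PHO13 it was 0.05 (SE 0.18), and its sign turned, to -0.03, on the centred scale. That GDE1 passed and these did not does not show that they differ in this step, which was not tested.

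From 75 to 120 to 135 to 180 min all 5 genes rose, against 19.8% of the genes tested. The change was 1.57 for PHM8 (SE 0.33, limma adjusted p = 0.00125), 1.26 for GDE1 (SE 0.17, adjusted p = 9.40e-07), 1.10 for SDT1 (SE 0.19, adjusted p = 6.04e-05), 0.85 for PHO8 (SE 0.21, adjusted p = 0.00268) and 0.50 for PHO13 (SE 0.18, adjusted p = 0.0359). Without the 120 min library, in which PHM8 and SDT1 were already near their later levels, the change was 2.08 for PHM8, 1.39 for SDT1 and 1.44 for GDE1. Without the 150, 210 and 225 min libraries, an alternative chosen after the data were seen, PHO13 changed by 0.75 (adjusted p = 2.52e-04) and the other 4 by 0.95 to 1.62. The PHO13 call was lost when any of the libraries at 75, 90, 105, 135, 165 or 180 min was left out, at a change of 0.37 to 0.54 (adjusted p = 0.0511 to 0.163). Relative to the median gene PHO13 changed by 0.30 (adjusted p = 0.308) and did not pass. On the scale without ribosomal protein genes neither PHO13, at 0.21 (adjusted p = 0.471), nor PHO8, at 0.56 (adjusted p = 0.0553), passed.

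After 135 to 180 min no further step passed for any of the 5 genes, in limma with adjusted p-values over all genes. The genes called in either direction were 0.882%, 0.154% and 0.0882% of those tested in the 3 later steps, which is 40, 7 and 4 genes. These counts moved with single libraries: without the 120 min library they were 166, 39 and 26, and the lowest counts with any 1 library left out were 3, 1 and 0. Without the 150, 210 and 225 min libraries they were 0, 0 and 3. In these 3 steps the 5 genes passed under none of the alternatives run. At an unadjusted p under 0.05 in the fit with all libraries the 5 genes gave 0 calls in these steps. Between 135 to 180 and 315 to 360 min, where 18.6% of genes were called in either direction, the change was 0.50 for PHM8 (SE 0.33, adjusted p = 0.308), 0.43 for PHO8 (SE 0.21, adjusted p = 0.147) and 0.23 for PHO13 (SE 0.18, adjusted p = 0.382), which became -0.01 without the 150 min library. It was -0.02 for SDT1 (SE 0.19) and -0.10 for GDE1 (SE 0.17), and 0.03 and -0.02 without the 150 min library. PHO8 had an unadjusted p under 0.05 there (0.0477), and PHM8 passed without the 120 min library (adjusted p = 0.0253) with the same change of 0.50.

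**Figure D2:**
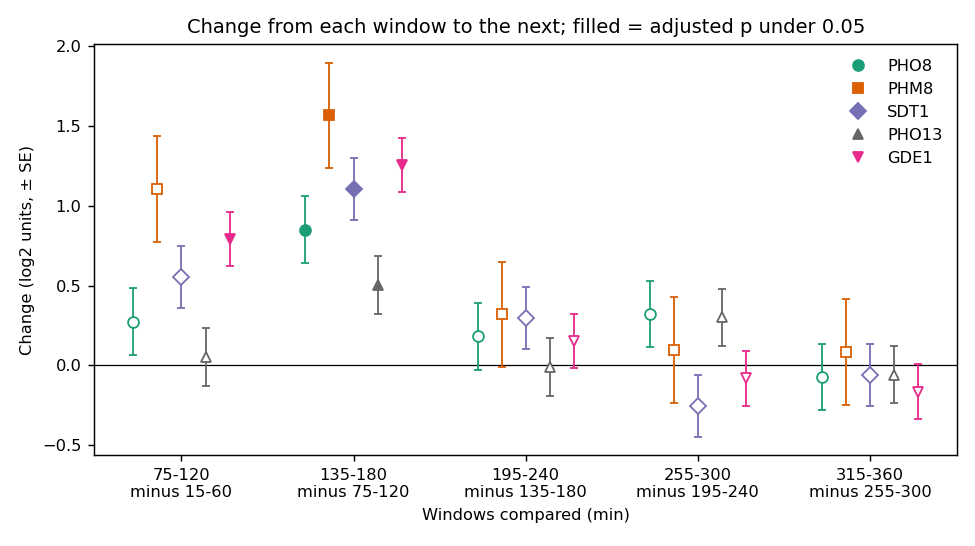
Change in log2 units (y axis, with its SE as bars) from each window of 4 libraries to the next (x axis, min) for the 5 genes; filled symbols passed at a limma adjusted p under 0.05. In the second step all 5 symbols are filled, from 0.50 for PHO13 to 1.57 for PHM8, in the first GDE1 alone, and in the last 3 steps none.

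The timing was summarised by the midpoint, the time from 30 min on at which a 3-point running median of the log2 course crossed the mean of the early and late window levels. It was 109 min for GDE1 (97.8 to 110 when each library was left out in turn), 111 min for SDT1 (107 to 116) and 112 min for PHM8 (107 to 119). PHO8 followed at 133 min (130 to 148) and PHO13 at 146 min (129 to 157). GDE1, SDT1 and PHM8 have overlapping ranges and are not ordered by these values, and the same holds for PHO8 and PHO13. For PHO8 the midpoint refers to its second climb, since the first was over within the early window.

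Whether the genes changed by different amounts was tested on the difference of 2 genes within each library, late against early, by an exact two-sided permutation test for the 10 pairs, with Benjamini-Hochberg adjustment over them. With 4 against 4 samples the smallest p is 0.0286. PHM8 changed more than its paralog SDT1 by 1.54 log2 units: PHM8 minus SDT1 went from -0.13 ± 0.20 to 1.40 ± 0.18 (SD, n = 4, exact permutation p = 0.0286, adjusted 0.0408). It also changed more than GDE1 by 1.22, than PHO8 by 1.62 and than PHO13 by 2.39, each with the same exact p and adjusted p. PHO13 changed less than GDE1 by 1.17, than SDT1 by 0.85 and than PHO8 by 0.77, again with an adjusted exact p of 0.0408. In these 7 pairs the 4 late differences lay above the 4 early ones. All 7 have the smallest possible p, so their adjusted value depends on how many of the 10 pairs reach it. The pairs share genes, and how often other gene pairs separate in this way was not examined.

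The remaining 3 pairs did not pass. SDT1 minus PHO8 changed by 0.08 (exact permutation p = 0.686, adjusted 0.686), GDE1 minus SDT1 by 0.32 (exact p = 0.114, adjusted 0.143) and GDE1 minus PHO8 by 0.40 (exact p = 0.171, adjusted 0.190). These values do not show that PHO8, SDT1 and GDE1 changed alike. A constant scaling of a library cancels in such differences, so they are the same under every rescaling described here.

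**Figure D3:**
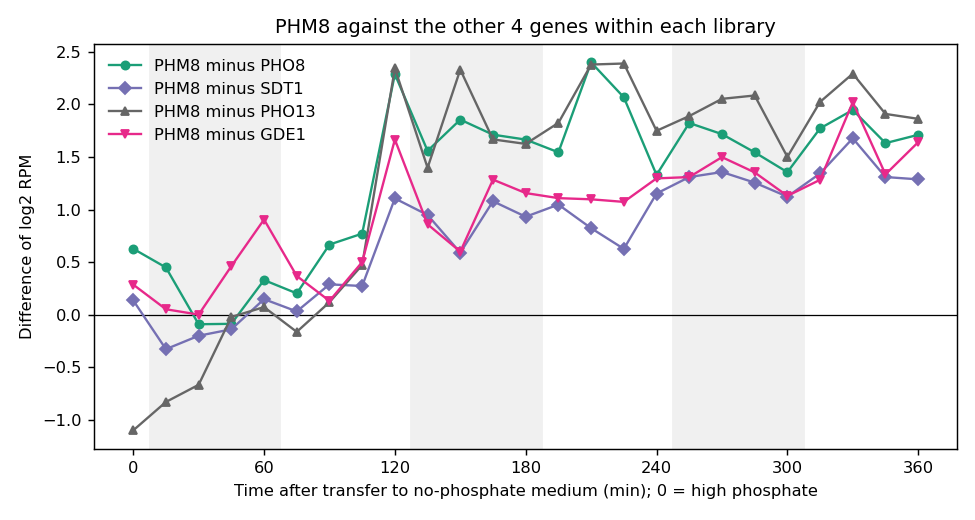
Difference in log2 RPM (y axis) between PHM8 and each of the other 4 genes within the same library, against time (min, x axis), with alternate windows shaded. The height of a line holds the genes' lengths and only its change can be compared; PHM8 minus SDT1 lies between -0.33 and 0.29 from 15 to 105 min and between 0.59 and 1.68 from 120 min on.

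The courses of the 5 genes were compared with all 3111 genes listed in each of the 24 no-phosphate libraries by Pearson r of log2 values, as a description, since all points share libraries and the rise after 105 min. SDT1 was most like ISN1, a nucleotidase specific for inosine monophosphate (r = 0.98), YHR112C (0.97) and PHM8 (0.97). GDE1 was also most like ISN1 (0.98), then PHO5, the main secreted acid phosphatase (0.97), and SDT1 (0.97). PHM8 was most like GPM2, a homologue of phosphoglycerate mutase, YLR346C and YNL217W, which the reference names PPN2 and which encodes a vacuolar polyphosphatase (each 0.98). PHO8 was most like YDR461C-A (0.95), HOR7 (0.94) and YDR089W (0.93). PHO13 was most like YCR024C-B (0.92), YJR085C (0.89) and RNR2, a ribonucleotide reductase subunit (0.88).

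Within the group, SDT1 and GDE1 (0.97), SDT1 and PHM8 (0.97) and PHM8 and GDE1 (0.95) had the highest r. PHO8 lay at 0.84 to 0.90 with these 3 and at 0.85 with PHO13, whereas PHO13 lay at 0.63 to 0.73 with them. The number of genes with r above 0.9 was 170 for PHM8, 131 for SDT1, 93 for GDE1, 38 for PHO8 and 1 for PHO13. By Spearman's rho the 3 most like genes were other ones for PHO8, PHM8, PHO13 and GDE1, and 1 of 3 was shared for SDT1, so these names depend on the measure.

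The other genes of the pathway and of the neighbouring reactions were described by lists, each beside all genes tested, whose median late minus early change was 0.33 log2 units and of which 1713 of 4535 (37.8%) rose and 454 fell. Of the other PHO regulon genes 16 of 16 tested rose, of 19 listed, with a median of 1.18, against 1.64 for the 5 genes described here. Their changes ran from 0.44 for PHO86, which acts in delivery of the Pho84 transporter, to 3.57 for PHO5. The 6 largest were PHO5, PHO89 at 2.88, PHM6 at 2.68, KCS1, an inositol phosphate kinase, at 1.93, HOR2 at 1.61 and PHO11 at 1.59. Relative to the median gene 13 of the 16 rose. On that scale 873 of all 4535 genes tested rose and 973 fell, the background for such counts in the lists below.

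PHM8 and SDT1 act on nucleotides, so genes of RNA and nucleotide breakdown and salvage were examined. Of 12 tested 5 rose, 2 fell and 5 did not pass, with a median of 0.18. The share that rose was close to that of all genes, so the list as a whole gives no result, and its named members are given for their roles. RNY1, the vacuolar T2 ribonuclease that starts RNA breakdown in the vacuole, rose by 1.96 (SE 0.24), ISN1 by 1.23 (SE 0.16), HPT1, the hypoxanthine and guanine salvage enzyme, by 1.03 (SE 0.16) and AMD1, AMP deaminase, by 0.79 (SE 0.17). APT1, adenine phosphoribosyltransferase, fell by 0.98 (SE 0.18) and ADO1, adenosine kinase, fell by 0.57 (SE 0.14). PNP1 and URH1, which split the nucleosides that nucleotidases leave, changed by -0.01 (SE 0.16) and -0.08 (SE 0.18) and did not pass. Both rose from 75 to 120 to 135 to 180 min, by 0.77 (limma adjusted p = 3.43e-04) and 0.59 (limma adjusted p = 0.0148). In that step 5 of the 12 rose and 3 fell, while 19.8% of all genes tested rose and 307 of 4535 fell. These counts depend on the scaling. Relative to the median gene 3 of the 12 rose and 4 fell, against 369 and 526 of all 4535. On the scale without ribosomal protein genes 2 of the 12 rose and 5 fell, against 265 and 644 of all 4535. From early to late, relative to the median gene, 3 rose and 3 fell.

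GDE1 uses glycerophosphodiesters, which phospholipases of type B form and transporters import. A list of genes around these compounds was examined, and its transporter gene, GIT1, was not tested. Of 6 tested genes 4 rose and 0 fell, with a median of 0.87. These were PGC1, a phosphatidylglycerol phospholipase, at 1.26 (SE 0.16), PLB3 and PLB1, phospholipases B, at 1.23 (SE 0.19) and 0.68 (SE 0.19), and GPC1, the glycerophosphocholine acyltransferase, at 1.07 (SE 0.28). Of the 4 that rose, PLB3 and PLB1 alone are phospholipases B. PLB2 at 0.43 (SE 0.31) and NTE1 at -0.0018 (SE 0.24) did not pass. Relative to the median gene 3 rose.

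Of 15 tested phosphatases of small metabolites 5 rose, 1 fell and 9 did not pass, with a median of 0.28, near the shares and the median of all genes. HOR2 rose by 1.61 (SE 0.19), and INM1 and INM2, inositol monophosphatases, by 1.58 (SE 0.21) and 1.29 (SE 0.18), whereas DOG2, a deoxyglucose phosphate phosphatase, fell by 0.74 (SE 0.18). TPS2, trehalose phosphate phosphatase, at 0.58 (SE 0.26) did not pass. Of 11 tested phosphatases of lipid phosphates 7 rose and 0 fell, with a median of 0.63, led by YSR3, a sphingoid base phosphate phosphatase, at 1.27 (SE 0.34), PAH1, the phosphatidate phosphatase, at 1.20 (SE 0.29) and INP54 at 1.14 (SE 0.23). Relative to the median gene 3 rose and 3 fell among the first, and 4 rose and 1 fell among the second. On that scale 873 of all 4535 genes tested rose and 973 fell.

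Pho8 protein reaches the vacuole through the AP-3 coat and is activated there by the protease Pep4. PEP4 rose by 1.48 (SE 0.13), PRB1, the protease that Pep4 activates, by 1.79 (SE 0.23) and VPS41, a tethering factor, by 0.73 (SE 0.21). The AP-3 subunit genes APL5, APL6, APM3 and APS3 changed by 0.37, 0.19, -0.24 and 0.01 and did not pass, so 3 of 7 rose, with a median of 0.37. These are near the values of all genes tested, 37.8% and 0.33, so the list as a whole gives no result. Its members are named for their roles. Relative to the median gene 2 rose and 1 fell. The upstream region of PHM8 holds the stress element 3 times, so genes known to be induced by stress were described too, and of 16 tested 15 rose, with a median of 2.40, led by HSP26, a small heat-shock protein, at 5.12 (SE 0.37). From 15 to 60 to 75 to 120 min 0 of these 16 passed, against 8 of 16 other PHO regulon genes and GDE1 among the 5 genes described here. Of all 4535 genes tested 18 rose and 14 fell in that step. The count of 0 of 16 is near that share and gives no result about the stress genes. From 75 to 120 to 135 to 180 min 14 of 16 stress genes and 12 of 16 PHO genes rose, with medians of 1.20 and 0.60, against 19.8% of all genes tested and a median of 0.20. On the centred scale 12 and 7 of 16 rose, against 369 of all 4535 genes tested. On the scale without ribosomal protein genes 11 and 3 of 16 rose, against 265 of 4535. The PHO medians on these scales were 0.39 and 0.30. The part of the stress response in the PHM8 change was not tested.

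**Figure D4:**
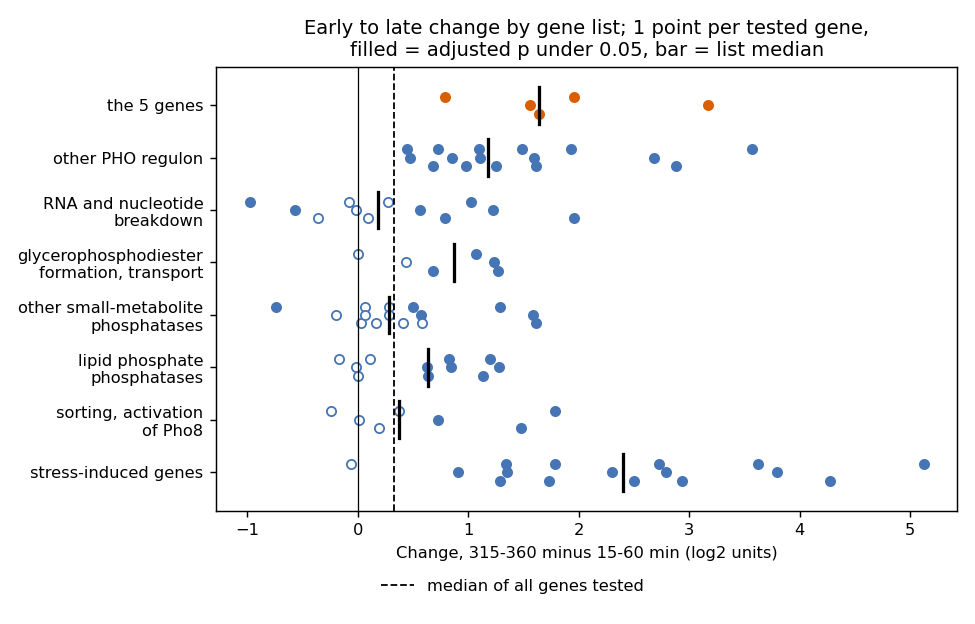
Change from 15 to 60 to 315 to 360 min in log2 units (x axis) for each tested gene of 8 lists (y axis); filled points passed at a limma adjusted p under 0.05, bars are list medians and the dashed line is the median of all 4535 genes tested. The 5 genes of the top row lie between 0.79 and 3.17, while the small-metabolite phosphatases centre on 0.28.

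Of the 10 nearest genes, 1 on each side, 6 were found by name and tested. DIG2, KRE29 and COG1 were listed in too few libraries to be tested. CQD1 was not found under that name, and its other names were not searched. ARB1, upstream of PHM8, changed by -0.35 (SE 0.16, limma adjusted p = 0.0783). VRG4 and CAR1, downstream of SDT1 and GDE1, fell by 0.74 (SE 0.14) and 0.81 (SE 0.17) between the early and the late window. CWC21, which lies 180 bases upstream of PHO8 on the same strand and contains both hexamers, rose by 0.84 (SE 0.22), and AIM6, 466 bases upstream of PHO13, rose by 0.67 (SE 0.14). YPD1, downstream of PHO13, changed by 0.38 (SE 0.26, limma adjusted p = 0.237) and did not pass.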

How the data were processed

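The authors deposited 1 table of log2 values, 1 column per library, with 6650 named genes and 51 lines without a name or value. The submitters' processing notes name Bowtie and build R64; no version, counter or strand setting is given in the sources used here. Taken back from log2, each deposited column sums to 1000000, so the values are log2 RPM and not ratios to 0 min. A gene has no value below a floor, taken as 10 reads; at least 94.9% of low values in each library were whole multiples of the implied read, within 0.01. Counting alone gives an SD of 0.46 log2 units at the floor.

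limma 3.58.1 in R 4.3.3 fitted 6 window means (eBayes with trend and robust) to 4535 genes with at least 3 values per window, with no pseudocount, and was tested on simulated data. Adjusted p-values are two-sided Benjamini-Hochberg values over all genes. Upstream sequences came from the RefSeq R64 genome with Biopython 1.88. In lists, GPC1 and GPP1 were matched by older names, and up to 6 genes with the largest changes are named. PHO86, PNP1, URH1, APS3 and the neighbouring genes fall outside that rule and were named after their values were seen. Members and lists were chosen with earlier results of these data known. GIT1, PHM7, CTF19, FBP1 and INP52 were not tested. Alternatives comprised scaling, filters, weights, window widths and leaving out libraries.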

Additional observations from a re-analysis of the deposited data

Results flagged for a closer look

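Of 30 groups of 4 samples examined (5 genes in 6 windows), 1 held a sample far from the other 3, and chance flags about 1 in 20 such groups. SDT1 at 135 min stood at 7.98 log2 RPM, while the 150, 165 and 180 min samples lay between 8.50 and 8.52.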

How the results depend on the processing

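With libraries centred on their median gene, 873 genes rose and 973 fell from early to late; with libraries rescaled without ribosomal protein genes, 794 rose and 1062 fell; on the deposited scale 1713 rose and 454 fell. On the centred and the rescaled values the late minus early change of PHO13 was 0.43 and 0.39, its change from 75 to 120 to 135 to 180 min was 0.30 and 0.21, and none of these passed. PHO13 at that step also missed the threshold with plain eBayes (0.50), and PHO8 did so without ribosomal protein genes (0.56).

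Late minus 0 min on the centred scale and the scale without ribosomal protein genes was 3.41 and 3.33 for PHM8, 2.27 and 2.19 for PHO8, 2.14 and 2.06 for SDT1, 2.12 and 2.04 for GDE1, and 0.28 and 0.20 for PHO13. With the 15 min library as the baseline the late window stood 3.67 above it for PHM8, 2.35 for PHO8, 1.94 for SDT1, 2.15 for GDE1 and 0.82 for PHO13. The early window, then without the 15 min library, stood 1.06 above that baseline for PHO8, 0.66 for PHM8, 0.40 for SDT1, 0.26 for GDE1 and 0.04 for PHO13.

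With each no-phosphate library left out in turn, the late minus early change ran from 3.01 to 3.34 for PHM8, 1.87 to 2.04 for GDE1, 1.54 to 1.72 for SDT1, 1.29 to 1.68 for PHO8 and 0.71 to 0.85 for PHO13, and all 5 genes passed each time. From 15 to 60 to 75 to 120 min PHM8 ran from 0.59 to 1.41 and GDE1 from 0.61 to 1.00. From 75 to 120 to 135 to 180 min PHO13 ran from 0.37 to 0.75, and from 135 to 180 to 315 to 360 min PHM8 ran from 0.39 to 0.61. Where calls changed with scaling or a left-out library, the cause was not tested. Of the 35 changes tested (5 genes, 7 contrasts), the 11 that passed kept their direction under the alternatives run. The sign turned under at least 1 alternative in 8 others, none of which passed on either side. With limma array weights 1729 genes rose from 75 to 120 to 135 to 180 min, against 898. No paired analysis was possible because the samples carry no replicate numbers in the labels and the windows hold serial times of 1 course. The fewest reads behind a value were 25 for PHO13 and 26 for PHO8, both at 120 min.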
